A study of Mus musculus with 10 samples.

Results

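The genes described here were chosen as markers of bone marrow macrophages: Apoe, Axl, Vcam1, Mertk, C1qa, C1qb, C1qc, Mrc1, Cd5l and Adgre1. Of these 10 genes, 5 had a row among the 10141 genes of the deposited table, namely Apoe, Axl, C1qa, Mrc1 and Vcam1. Mertk, C1qb, C1qc, Cd5l and Adgre1 had no row and were not analysed here. Bulk RNA sequencing compared GFP+ cells with GFP-CD11b+ cells, with 5 libraries in each group. All libraries came from bone marrow of CD45.1 mice given MLL-AF9/GFP cells by tail vein, collected once GFP had reached 2% in blood. MLL-AF9 is a fusion gene that drives acute myeloid leukaemia, and GFP marks the cells that carry it. The GFP+ cells are the leukaemia cells, and the GFP-CD11b+ cells are myeloid cells of the host marrow, since CD11b is a surface integrin of myeloid cells. The genotype field reads MLL-AF9/GFP and the cell type field names leukaemia cells in all 10 libraries, and only the sample titles separate the groups. The treatment protocol gives flow sorting for both populations, whereas the design text gives magnetic selection of CD45.2-negative CD11b+ cells. The labels give no age or sex of the mice and do not say whether the libraries of a group came from separate mice. The p-values therefore measure only the spread between these libraries. Marrow without leukaemia was not analysed here.

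Macrophages of the marrow engulf dying cells, spent erythrocytes and the expelled nuclei of erythroblasts, and they hold erythroblasts and blood progenitors in niches. Apoe carries cholesterol out of cells that have digested lipid-rich debris. Axl and Mertk are receptor kinases that bind dying cells through the bridging protein Gas6, C1qa is a chain of the complement component C1q that coats debris, and Mrc1 is the mannose receptor. Vcam1 binds the integrin VLA-4 on blood cells. It is also made by endothelial and stromal cells, and its mRNA can be present in leukaemia cells.

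The promoters of the members with an entry in the RefSeq table are shown because these genes had the same order of the 5 GFP-CD11b+ libraries, described below with the values. Entries were found for 3 of the 5 members, Apoe, Axl and Mrc1. Each sequence holds the 250 bases before the start site, 5′ to 3′ on the strand of the gene, from RefSeq on GRCm38.p6. They lie at chr7:19699189-19699438 on the minus strand for Apoe, chr7:25788734-25788983 on the minus strand for Axl and chr2:14229164-14229413 on the plus strand for Mrc1. Capitals mark GAGGAA, a core read by the macrophage transcription factor PU.1 and other ETS proteins, or its reverse complement TTCCTC.
Apoe: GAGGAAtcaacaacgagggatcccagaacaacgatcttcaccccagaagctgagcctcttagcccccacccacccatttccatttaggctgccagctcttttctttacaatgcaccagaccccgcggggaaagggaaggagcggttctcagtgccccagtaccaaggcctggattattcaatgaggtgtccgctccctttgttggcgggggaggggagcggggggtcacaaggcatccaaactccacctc
Axl: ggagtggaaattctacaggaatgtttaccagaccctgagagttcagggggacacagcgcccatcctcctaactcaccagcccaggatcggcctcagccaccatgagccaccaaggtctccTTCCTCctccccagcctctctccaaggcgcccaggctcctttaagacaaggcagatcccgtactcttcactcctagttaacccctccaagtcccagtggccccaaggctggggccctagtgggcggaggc
Mrc1: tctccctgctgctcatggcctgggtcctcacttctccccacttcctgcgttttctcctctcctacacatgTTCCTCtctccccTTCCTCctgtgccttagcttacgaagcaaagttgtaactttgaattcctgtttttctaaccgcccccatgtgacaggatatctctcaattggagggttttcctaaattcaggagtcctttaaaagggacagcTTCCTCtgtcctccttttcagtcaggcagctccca
The motif was found 1 time for Apoe, beginning 250 bases before the start site, and 1 time for Axl, at 130 bases. It was found 3 times for Mrc1, at 180, 167 and 35 bases. Of 32851 windows of the same length in the table, 23.3% held it on either strand. Neither TGCTGA, a half-site of MAF proteins found in 16.1% of windows, nor TGANTCA, the AP-1 site found in 6.75%, was in these 3 windows on either strand. No match overlapped another. These matches describe letters in the windows and not bound sites.

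Summed over the 10141 genes, each GFP+ library had 24099551 to 30879584 reads, and each GFP-CD11b+ library had between 24712749 and 32247803. Levels below are normalised reads, which are reads divided by the size factor of the library. They were recovered from the deposited variance-stabilised log2 values. The deposited table held genes that already differed between the groups: the highest unadjusted p of any of its genes was 0.243. Of the 8079 genes past the filter on low values, 99.8% passed limma at an adjusted p of 0.05, with 49.1% higher and 50.7% lower in GFP+ cells, and the groups did not overlap for 86.8%. The median log2 difference of all tested genes was -0.16. The leukaemia genes Hoxa9, Hoxa10 and Meis1 summed to between 7336 and 9132 normalised reads in GFP+ libraries and between 96 and 160 in GFP-CD11b+ libraries. GFP-CD11b+ replicates 2 and 4 stood apart from the other 3 GFP-CD11b+ libraries. Limma's library weights, which fall as a library departs from the fit, were lowest for these 2 libraries at 0.323 and 0.308. The result of each member is given with and without them. That choice was made after their values had been seen.

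Of the 5 members with a row, 4 passed the filter on low values, and 3 of those 4 passed limma, beside 99.8% of all tested genes. Apoe and Mrc1 were lower and Vcam1 was higher in GFP+ cells, while Axl did not pass and C1qa lay below the filter. The groups did not overlap for Apoe, lower in GFP+ cells beside 44.3% of all tested genes, and for Vcam1, higher beside 42.4%. That makes 2 of the 4 tested members, beside 86.8% of all tested genes. A gene such as Mrc1 reached the filter through the group in which it was high, so these counts do not support a difference. In bulk samples, fewer cells of a type and less RNA per cell cannot be told apart.

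Apoe had 20278, 822.6, 12687, 2624 and 12645 normalised reads in GFP-CD11b+ replicates 1 to 5. It had 426.0, 207.6, 594.6, 392.2 and 526.0 in GFP+ replicates 1 to 5. Replicates 2 and 4 were far below the other GFP-CD11b+ libraries, yet replicate 2 was still above every GFP+ library, and the groups did not overlap. Mean levels were 9811 ± 8036 in GFP-CD11b+ and 429.3 ± 147.7 in GFP+ cells (SD, n = 5 each), a 22.9-fold lower level in GFP+ cells. The log2 difference was -2.93 (SE 0.606, limma adjusted p = 0.000458). Without GFP-CD11b+ replicates 2 and 4 it was 35.4-fold lower with a log2 difference of -4.09, and without replicates 2 and 4 of both groups 29.5-fold lower with -3.93. Log2 differences are differences of mean deposited values, whereas folds are ratios of mean normalised reads. They are smaller than the log2 of the fold where reads are few, and can differ from it where libraries of a group spread widely.

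Axl had 1454, 56.73, 1042, 97.13 and 917.2 normalised reads in GFP-CD11b+ replicates 1 to 5. The GFP+ replicates 1 to 5 had 272.2, 79.04, 241.6, 107.8 and 163.3. GFP-CD11b+ replicate 2 lay below all 5 GFP+ libraries and replicate 4 below 4 of them, while the other 3 GFP-CD11b+ libraries lay above every GFP+ library. The means were 713.3 ± 614.1 in GFP-CD11b+ and 172.8 ± 83.23 in GFP+ cells (SD, n = 5 each). Axl did not pass (log2 difference -0.74, SE 0.368, limma adjusted p = 0.0672, with a range of 9.44e-07 to 0.627 under other settings). It passed as lower in GFP+ cells without GFP-CD11b+ replicate 2 (-1.03, limma adjusted p = 0.00728) or without replicate 4 (-0.98, 0.017). Without both, the level was 6.58-fold lower in GFP+ cells (-1.45, limma adjusted p = 9.44e-07), and without replicates 2 and 4 of both groups 5.04-fold lower (-1.28, limma adjusted p = 2.67e-06). All fits named here in which Axl passed left out at least 1 of the 2 GFP-CD11b+ libraries with the lowest Axl. In the other fits that left out 1 library, Axl did not pass (limma adjusted p = 0.0691 to 0.176).

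C1qa had 531.7, 17.73, 451.8, 0 and 350.6 normalised reads in GFP-CD11b+ replicates 1 to 5. It had 71.14, 11.08, 61.84, 3.396 and 17.63 in GFP+ replicates 1 to 5. No read was found in GFP-CD11b+ replicate 4, where a count of 0 allows up to 3 reads, or 3.785 normalised reads. Replicates 2 and 4 were the 2 lowest libraries in both groups, and the groups overlapped through them. The means were 270.4 ± 247.3 and 33.01 ± 31.14 (SD, n = 5 each), 8.19-fold lower in GFP+ cells, and 13.5-fold lower without GFP-CD11b+ replicates 2 and 4. C1qa lay below the filter of 145.2 normalised reads, a mean deposited value 1 unit above the lowest, and was not tested. In the fit with no filter it did not pass (limma adjusted p = 0.0616).

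Mrc1 had 846.5, 62.64, 500.7, 87.04 and 429.4 normalised reads in GFP-CD11b+ replicates 1 to 5. In GFP+ replicates 1 to 5 it had 95.11, 14.03, 115.0, 29.71 and 52.88. As with Axl, 3 GFP-CD11b+ libraries lay above all GFP+ libraries. For Mrc1, replicates 2 and 4 both lay within the range of the GFP+ libraries. The means were 385.2 ± 324.4 and 61.36 ± 42.82 (SD, n = 5 each), 6.28-fold lower in GFP+ cells (log2 difference -0.80, SE 0.26, limma adjusted p = 0.00953). The fold was 9.65 without GFP-CD11b+ replicates 2 and 4 (-1.27) and 6.75 without replicates 2 and 4 of both groups (-1.12). Mrc1 did not pass when values were scaled to the total of the table (limma adjusted p = 0.121) or when every annotated gene counted as a test (limma adjusted p = 0.0655).

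Vcam1 went the other way. It had 1230, 949.1, 1115, 1065 and 1082 normalised reads in GFP-CD11b+ replicates 1 to 5, and 3322, 3902, 3980, 5118 and 4238 in GFP+ replicates 1 to 5. The groups were far from overlapping, and replicates 2 and 4 differed little from the other GFP-CD11b+ libraries. Means were 4112 ± 654.4 in GFP+ and 1088 ± 101.0 in GFP-CD11b+ cells (SD, n = 5 each), 3.78-fold higher in GFP+ cells (log2 difference 1.52, SE 0.0891, limma adjusted p = 3.16e-09). It was 3.6-fold higher without GFP-CD11b+ replicates 2 and 4 and 3.37-fold higher without replicates 2 and 4 of both groups. The exons of Vcam1 overlap Gm43109 on the opposite strand in the GENCODE annotation. How strand was handled in counting was not given in the sources used here. Reads of these 2 genes may not be told apart.

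**Figure D1:**
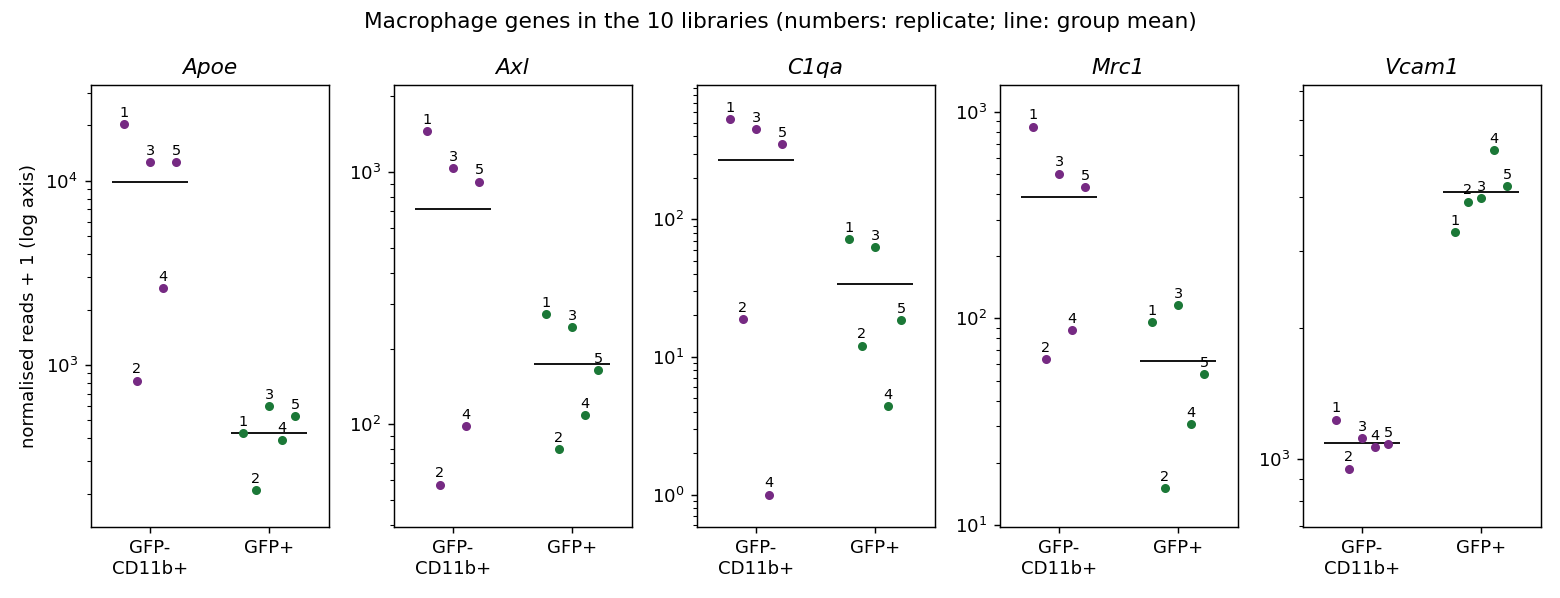
Normalised reads + 1 on a log axis (vertical) for Apoe, Axl, C1qa, Mrc1 and Vcam1 in the GFP-CD11b+ (purple) and GFP+ (green) libraries. Numbers are replicates and lines are group means. GFP-CD11b+ replicates 2 and 4 sit far below replicates 1, 3 and 5 for every gene but Vcam1, which is higher in all 5 GFP+ libraries.

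The 5 members ordered the GFP-CD11b+ libraries almost alike. Replicates 2 and 4 were the 2 lowest GFP-CD11b+ libraries for 5 of the 5 members, beside 13% of all tested genes (1054 of 8079), and were the 2 highest for 32.1% of all tested genes. The order from high to low was 1, 3, 5, 4, 2 for Apoe, Axl, Mrc1 and Vcam1, an order found in 2.19% of tested genes. C1qa differed from it only in the order of replicates 2 and 4. The size of the spread was not alike. The coefficient of variation over the GFP-CD11b+ libraries was 81.9% for Apoe, 86.1% for Axl, 91.5% for C1qa and 84.2% for Mrc1, but 9.28% for Vcam1. The highest library was 24.6 times the lowest for Apoe, 25.6 times for Axl, 13.5 times for Mrc1 and 1.3 times for Vcam1. For Vcam1, replicates 3, 4 and 5 lay between 1065 and 1115, closer together than the SD of the group, so its order carries little information.

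Much of that spread lay in a gap between replicates 1, 3 and 5 on one side and replicates 2 and 4 on the other. The third highest library was 4.82 times the fourth for Apoe, 9.44 times for Axl, 19.8 times for C1qa and 4.93 times for Mrc1, but 1.02 times for Vcam1. For each pair among Apoe, Axl and Mrc1, all 10 pairs of GFP-CD11b+ libraries were in the same order. C1qa shared the order of 9 of 10 pairs with each of them. These values share the libraries and their depth, and with 5 libraries no correlation was computed.

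In the GFP+ cells, replicates 2 and 4 were the 2 lowest libraries for 4 of the 5 members, all but Vcam1, beside 15.7% of tested genes. They were the 2 lowest in both groups for the same 4 members, beside 3.47% of tested genes. The labels do not say that the same number marks the same mouse in both groups. Axl had the order 1, 3, 5, 4, 2 in both groups, and C1qa had 1, 3, 5, 2, 4 in both. Apoe ran 3, 5, 1, 4, 2 and Mrc1 3, 1, 5, 4, 2 in GFP+ cells. Vcam1 ran 4, 5, 3, 2, 1, and shared the order of 3 of 10 library pairs with Axl there. The spread was smaller in GFP+ cells for Apoe, with a coefficient of variation of 34.4%, and for Axl, with 48.2%. It was 94.3% for C1qa, 69.8% for Mrc1 and 15.9% for Vcam1. No test of the difference in spread was made.

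**Figure D2:**
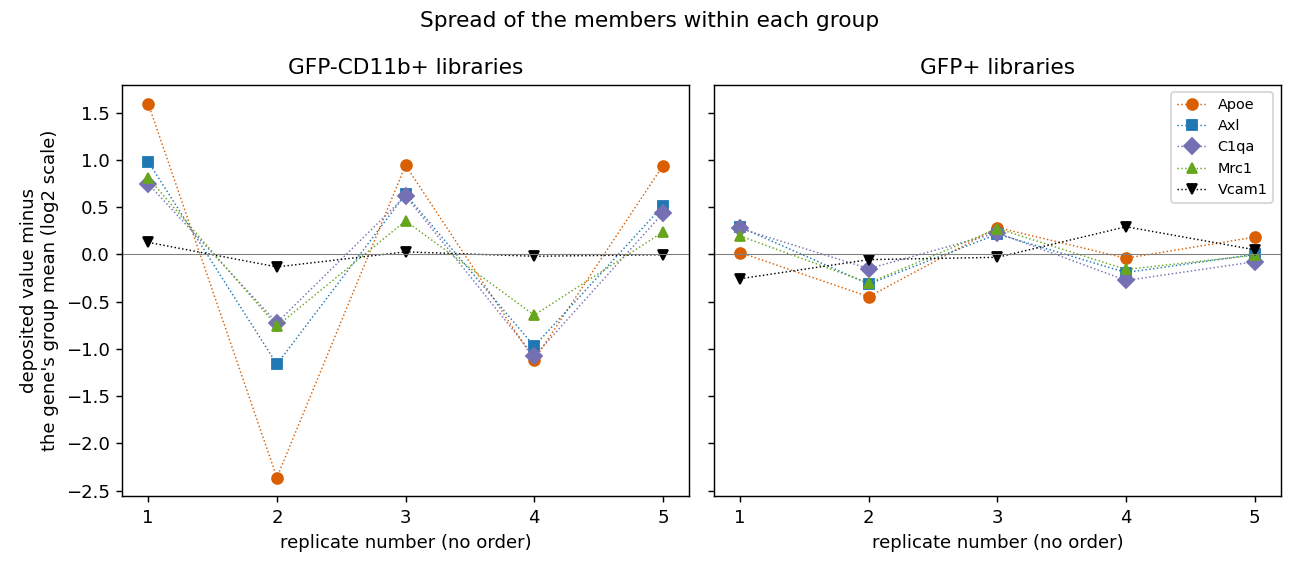
Deposited value minus the gene's mean in the group (vertical, log2 scale) by replicate number, which has no order, for the GFP-CD11b+ (left) and GFP+ (right) libraries. Dotted lines only join the symbols of one gene. Apoe, Axl, C1qa and Mrc1 lie below 0 in GFP-CD11b+ replicates 2 and 4 and above 0 in replicates 1, 3 and 5, while Vcam1 stays near 0.

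Marker lists of other cell types moved with the same libraries. Of 16 genes that mark dendritic cells or belong to MHC class II, 14 had a row, and they summed to 65356, 7503, 46817, 7555 and 42703 normalised reads in GFP-CD11b+ replicates 1 to 5. In the GFP+ libraries they summed to between 2004 and 3554. Replicates 2 and 4 were the 2 lowest GFP-CD11b+ libraries for 10 of these 14 genes, beside 13% of all tested genes. The other macrophage list, described below, summed to 56723, 28802, 46478, 32348 and 44849 in GFP-CD11b+ replicates 1 to 5, and to between 12095 and 17950 in GFP+ libraries. All 10 genes of the neutrophil list went the opposite way, with replicates 2 and 4 the 2 highest GFP-CD11b+ libraries. That held for 32.1% of all tested genes. The neutrophil genes are given here by their sums. They summed to 2809848, 4461831, 3051772, 3730525 and 3068142 in GFP-CD11b+ replicates 1 to 5 and to between 67018 and 71867 in GFP+ libraries. In the monocyte list (11 of 12 with a row) replicates 2 and 4 were the 2 lowest for 7 genes, beside 13% of all tested genes. The monocyte sum did not follow, at 679253, 685910, 612034, 737451 and 606538, against 88985 to 127734 in GFP+ libraries. Most of that sum in GFP-CD11b+ replicates 1 to 5 was Lyz2, at 536210, 616243, 479894, 659874 and 485488. The sum therefore says little about the other genes of the list. The 3 of 10 erythroid genes with a row summed to 298, 14, 233, 18 and 183, and to between 3 and 62 in GFP+ libraries. No gene of the neutrophil or monocyte list was at 0 in any library, and no gene of the MHC class II, neutrophil, monocyte or erythroid list was at 0 in a GFP-CD11b+ library. The part of these cell types in the results for Apoe, Axl, C1qa and Mrc1 was not tested.

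The B and plasma cell list (8 of 11 with a row) summed to 3550, 2104, 2053, 1443 and 1901 in GFP-CD11b+ replicates 1 to 5 and to between 469 and 596 in GFP+ libraries. The T and NK cell list (9 of 10) summed to 5637, 3951, 3019, 2321 and 2647, and to between 2908 and 5874 in GFP+ libraries. Neither sum put replicates 2 and 4 together below the rest. Gene by gene, however, they were the 2 lowest GFP-CD11b+ libraries for 6 of the 8 B and plasma cell genes, and for 2 of the 9 T and NK cell genes. The share over all tested genes was 13%. The B and plasma cell sum includes Jchain, the joining chain of antibodies, at 1204, 1486, 818.1, 910.8 and 842.4. The part of B cells in the results for Apoe, Axl, C1qa and Mrc1 was not tested. Of the endothelial and stromal list, which bears on Vcam1, 4 of 12 genes had a row. They summed to between 6884 and 8295 in GFP+ libraries and to between 855 and 1088 in GFP-CD11b+ libraries, and their part in the result for Vcam1 was not tested. Most of the sum was Pecam1, an adhesion molecule of endothelial and blood cells, at 6812 ± 483.3 in GFP+ and 758.3 ± 82.98 in GFP-CD11b+ cells (SD, n = 5 each). Pdgfrb, a growth factor receptor, was at 625.6 ± 87.45 and 26.94 ± 20.9. Cxcl12, the ligand of the receptor CXCR4, was at 437.9 ± 75.11 and 15.65 ± 15.74. Col1a1, a chain of type I collagen, went the other way, at 17.41 ± 11.59 in GFP+ and 169.2 ± 27.28 in GFP-CD11b+ cells. Cxcl12 and Col1a1 lay below the filter and were not tested.

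**Figure D3:**
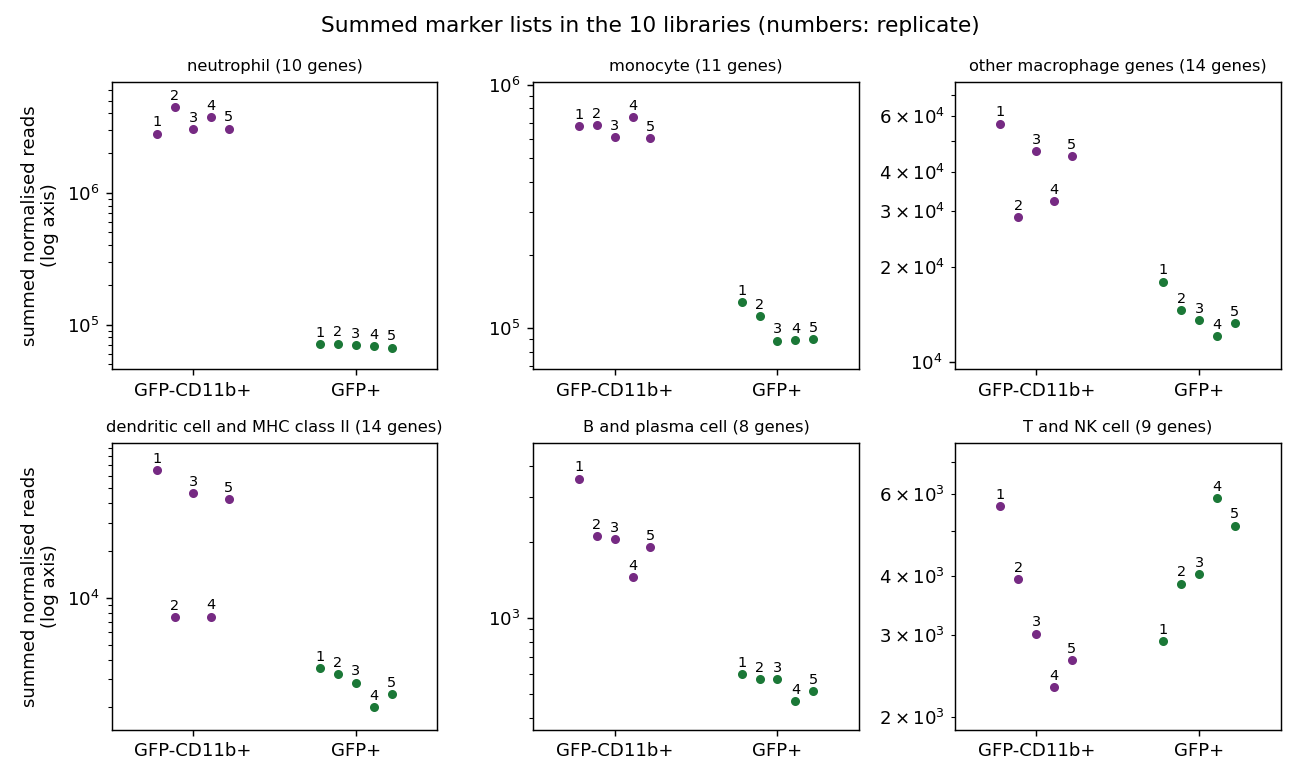
Summed normalised reads of 6 marker lists on log axes (vertical) in the GFP-CD11b+ (purple) and GFP+ (green) libraries, with replicate numbers. The dendritic cell list, which includes MHC class II genes, and the other macrophage list are lowest in GFP-CD11b+ replicates 2 and 4, and the neutrophil list is highest there.

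The genes most like each member were those with the smallest root mean square difference of deposited values. Each gene's own mean over the libraries compared was subtracted first. Over all 10 libraries that is a single mean, so the difference between the groups is part of the likeness. Over the 5 GFP-CD11b+ libraries, Apoe was closest to Ace, with a root mean square difference of 0.085, against a median of 1.53 over tested genes. Ace, the gene of angiotensin-converting enzyme, is in the monocyte list above. Adgre4, an adhesion receptor gene, followed at 0.288, then H2-Ab1, an MHC class II chain, at 0.357. Cd74, the invariant chain of MHC class II, was at 0.403 and H2-Eb1 at 0.409. Ace had 8312, 174.9, 5237, 744.3 and 4695 normalised reads in GFP-CD11b+ replicates 1 to 5, and between 244.5 and 499.7 in GFP+ libraries. It thus had replicate 2 below all GFP+ libraries, where Apoe did not. Over all 10 libraries the 5 nearest genes were H2-Eb1 (0.389), H2-Aa (0.439), Cd74 (0.453), Adgre4 (0.46) and H2-Ab1 (0.473), against a median of 1.78.

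Axl was closest to Clec4a1, a C-type lectin gene, over the 5 GFP-CD11b+ libraries, with a root mean square difference of 0.048, against a median of 0.925. Nxpe4 (0.054), the G protein subunit gene Gngt2 (0.076), the lectin gene Clec4a3 (0.135) and the syndecan gene Sdc3 (0.165) followed. Clec4a1 had 4068, 624.1, 3457, 761.9 and 2943 normalised reads in GFP-CD11b+ replicates 1 to 5, all above the 272.5 to 567.5 of the GFP+ libraries, whereas Axl overlapped. Among the nearest over all 10 libraries were Nxpe4 (0.162), the haemochromatosis gene Hfe (0.2), Mrc1 (0.219) and the lysosomal protease gene Lgmn (0.234), against a median of 0.83. Of these genes, Mrc1 is itself a member.

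Vcam1 varied little, so many genes were as close. Over the 5 GFP-CD11b+ libraries the 5 nearest genes, Tfb2m (0.016), Slc16a13 (0.017), Mier2 (0.02), Dcaf17 (0.02) and Pigk (0.02), stood against a median of 0.154. Over all 10 libraries the nearest were the peptidase gene Nln (0.075), the ganglioside synthase gene B4galnt1 (0.086), Zadh2 (0.093), the ceramide kinase gene Cerk (0.097) and Ppm1e (0.115), against a median of 0.855. Nln had between 2492 and 3477 normalised reads in GFP+ and between 604.0 and 858.1 in GFP-CD11b+ libraries. When likeness was taken on log2(normalised reads + 1), 4 of the 15 genes nearest over the GFP-CD11b+ libraries stayed among the 5 nearest of their member. The 5 nearest genes of Axl ranked between 18 and 29 on that scale, and Slc16a13 ranked 4945 for Vcam1. The names of the nearest genes therefore depend on the scale.

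Of 19 other macrophage genes, 14 had a row and 11 were tested. Of these, 9 were lower and 1 was higher in GFP+ cells, beside 50.7% and 49.1% of all tested genes, and 1 did not pass. The median log2 difference was -0.97, beside -0.16 for all tested genes. With scaling to the table total, 4 were lower and 1 higher (median -0.79, beside 0.43 for all tested genes). Without GFP-CD11b+ replicates 2 and 4, 10 were lower and 1 higher (median -1.41). Cd163, Timd4, Marco, Vsig4 and Folr2, which mark resident macrophages of several tissues, had no row. Slc40a1, the iron exporter ferroportin, had 8783, 14139, 9313, 14658 and 9612 normalised reads in GFP-CD11b+ replicates 1 to 5, and between 1346 and 1810 in GFP+ libraries. It was 7.16-fold lower in GFP+ cells (log2 difference -2.46), and its highest libraries were replicates 2 and 4, the opposite of the members. Fcgr1, the high-affinity IgG receptor, had 1196, 228.1, 892.6, 153.9 and 785.4 in GFP-CD11b+ replicates 1 to 5 and between 25.88 and 83.47 in GFP+ libraries, and was 12.8-fold lower (-1.27). Hmox1, the haem-degrading enzyme, was 3.49-fold lower (-1.24). Without GFP-CD11b+ replicates 2 and 4 the log2 differences were -2.21 for Slc40a1, -1.75 for Fcgr1 and -1.56 for Hmox1.

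Siglec1, the sialoadhesin CD169 of marrow macrophages, had 714.7, 54.37, 318.7, 74.43 and 288.1 normalised reads in GFP-CD11b+ replicates 1 to 5. In GFP+ libraries it had between 74.6 and 161.6. Its groups overlapped through the same 2 libraries as those of Axl, and it did not pass (log2 difference -0.40, limma adjusted p = 0.096, with a range of 0.000165 to 0.783 under other settings). It passed as lower in GFP+ cells without GFP-CD11b+ replicate 2 (limma adjusted p = 0.0175) or replicate 4 (limma adjusted p = 0.032). Without both, the log2 difference was -0.79 (limma adjusted p = 0.000165). In the other fits that left out 1 library, Siglec1 did not pass (limma adjusted p = 0.0891 to 0.261). With all libraries it also passed after quantile normalisation (-0.51, limma adjusted p = 0.0394) and with library weights (-0.54, limma adjusted p = 0.000926). Those weights were lowest for GFP-CD11b+ replicates 2 and 4. Siglec1 did not pass with voom on the recovered size factors (limma adjusted p = 0.162) or with voom scaled to the table total (limma adjusted p = 0.783). Spic, the transcription factor of iron-recycling macrophages, lay below the filter, with 94.44, 0, 205.1, 0 and 120.9 in GFP-CD11b+ replicates 1 to 5. Gpnmb, a lysosomal glycoprotein gene, was the member of this list that was higher in GFP+ cells, 3.79-fold (0.79). It had 102.6, 17.73, 158.7, 23.97 and 179.4 in GFP-CD11b+ replicates 1 to 5 and between 276.8 and 458.5 in GFP+ libraries. Its lowest GFP-CD11b+ libraries were again replicates 2 and 4, as for 12 of the 14 genes of the list with a row. That order was found in 13% of all tested genes.

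Of the genes around Axl, the list of TAM receptors, bridging proteins and uptake of dying cells, 14 of 26 had a row and 12 were tested. Of these, 11 were lower and 1 higher in GFP+ cells, beside 50.7% and 49.1% of all tested genes (median log2 difference -0.75). With scaling to the table total, 6 were lower and 2 higher (median -0.15, beside 0.43 for all tested genes). The other TAM receptor, Tyro3, and the ligands Gas6 and Pros1 had no row, so no bridging protein of Axl could be set beside it. Mfge8, a bridging protein for integrins, was 2.10-fold higher in GFP+ cells (0.48), with 401.8 ± 53.97 against 191.2 ± 56.72 normalised reads (SD, n = 5 each). Thbs1, thrombospondin-1, was 195-fold lower (-5.19), with 94.99 ± 75.34 against 18489 ± 6312. Socs3, an inhibitor of cytokine signalling, was 39.8-fold lower (-2.37), and Rac2, a GTPase of phagocyte movement, 2.57-fold lower (-1.33). Elmo1 and Elmo2, adaptors of engulfment, were lower with log2 differences of -0.29 and -0.28. Both had values above 0 after quantile normalisation and when scaled to the total. Replicates 2 and 4 were the 2 lowest GFP-CD11b+ libraries for 4 of the 14 genes with a row, beside 13% of all tested genes.

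Of the genes around Apoe, the list of its receptors, lipid transporters and their regulators, 16 of 26 had a row and 15 were tested. Of these, 14 were lower and 1 higher in GFP+ cells, beside 50.7% and 49.1% of all tested genes (median -0.88). Scaled to the total of the table, 8 were lower and 3 higher (median -0.32, beside 0.43 for all tested genes). Apoc1, Apoc2 and Apoc4, the neighbours of Apoe in its gene cluster, had no row. Apobr, a receptor for apolipoprotein B48, was 8.97-fold lower (-2.91), with 2333 ± 360.7 in GFP+ and 20918 ± 1344 in GFP-CD11b+ cells (SD, n = 5 each). Sorl1, a sorting receptor that binds Apoe, was 4.58-fold lower (-2.14), and Mylip, which marks lipoprotein receptors for breakdown, 3.03-fold lower (-1.13). Lpcat3, a phospholipid-remodelling enzyme, was 1.24-fold higher (0.23). Nr1h2, the sterol sensor LXR-beta, was lower at -0.28, but above 0 after quantile normalisation and when scaled to the total. In this list 5 of 16 genes had replicates 2 and 4 as the 2 lowest GFP-CD11b+ libraries, beside 13% of all tested genes.

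Of the genes around Vcam1, 17 of 21 had a row and 15 were tested. Of these, 14 were lower and 1 higher in GFP+ cells, beside 50.7% and 49.1% of all tested genes (median -0.85). Scaled to the total of the table, 10 were lower and 3 higher (median -0.73, beside 0.43 for all tested genes). Itga4, the alpha chain of VLA-4, had 16839, 8359, 14822, 12649 and 14324 normalised reads in GFP-CD11b+ replicates 1 to 5. It had 12014, 9150, 10178, 9165 and 9034 in GFP+ replicates 1 to 5, so the groups overlapped. It was 1.35-fold lower in GFP+ cells (-0.39, limma adjusted p = 0.0263). Itgb1, its beta chain in VLA-4, had no row. Itgb7, which pairs with Itga4 in another integrin that can bind Vcam1, was 2.62-fold lower (-1.28), with 3188 ± 980.2 in GFP+ and 8354 ± 1488 in GFP-CD11b+ cells (SD, n = 5 each). Itga9, the alpha chain of a further integrin that binds Vcam1, lay below the filter, with 349.8 ± 75.96 in GFP+ and 28.78 ± 27.4 in GFP-CD11b+ cells (SD, n = 5 each). Cxcl12, also of this list, lay below the filter too, and its mean was likewise higher in GFP+ cells. In the fit with no filter on low values, 14 genes of the list were lower and 3 higher in GFP+ cells. Fn1, fibronectin, the other main ligand of VLA-4, was 3.38-fold lower (-1.76). Of the proteins that tie such adhesion molecules to actin, Rdx was 2.84-fold higher (1.41), while Ezr was 3.42-fold (-1.61) and Msn 2.93-fold lower (-1.53). Adam17, which sheds Vcam1 from the surface, and Nfkb1, an NF-kappaB subunit, were lower at -0.34 and -0.27, but above 0 after quantile normalisation and when scaled to the total. Replicates 2 and 4 were the 2 lowest GFP-CD11b+ libraries for 8 of the 17 genes of this list with a row. The share over all tested genes was 13%.

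Of 15 transcription factors of macrophages, 13 had a row and 9 were tested. Of these, 7 were lower and 2 higher in GFP+ cells, beside 50.7% and 49.1% of all tested genes (median -0.80). Scaled to the total of the table, 5 were lower and 2 higher (median -0.63, beside 0.43 for all tested genes). Tfec was 5.19-fold higher (1.79), with between 3318 and 3766 normalised reads in GFP+ and between 490.9 and 978.6 in GFP-CD11b+ libraries. Mef2c was 3.93-fold higher (1.65). Nfe2l2, a regulator of antioxidant genes, was 3.92-fold lower (-1.73). Bach1, a haem-sensing repressor, was 3.36-fold lower (-1.56), and Klf4, a factor of monocyte differentiation, was 3.09-fold lower (-1.26). For 7 of the 13 factors with a row, replicates 2 and 4 were the 2 lowest GFP-CD11b+ libraries, beside 13% of all tested genes.

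**Figure D4:**
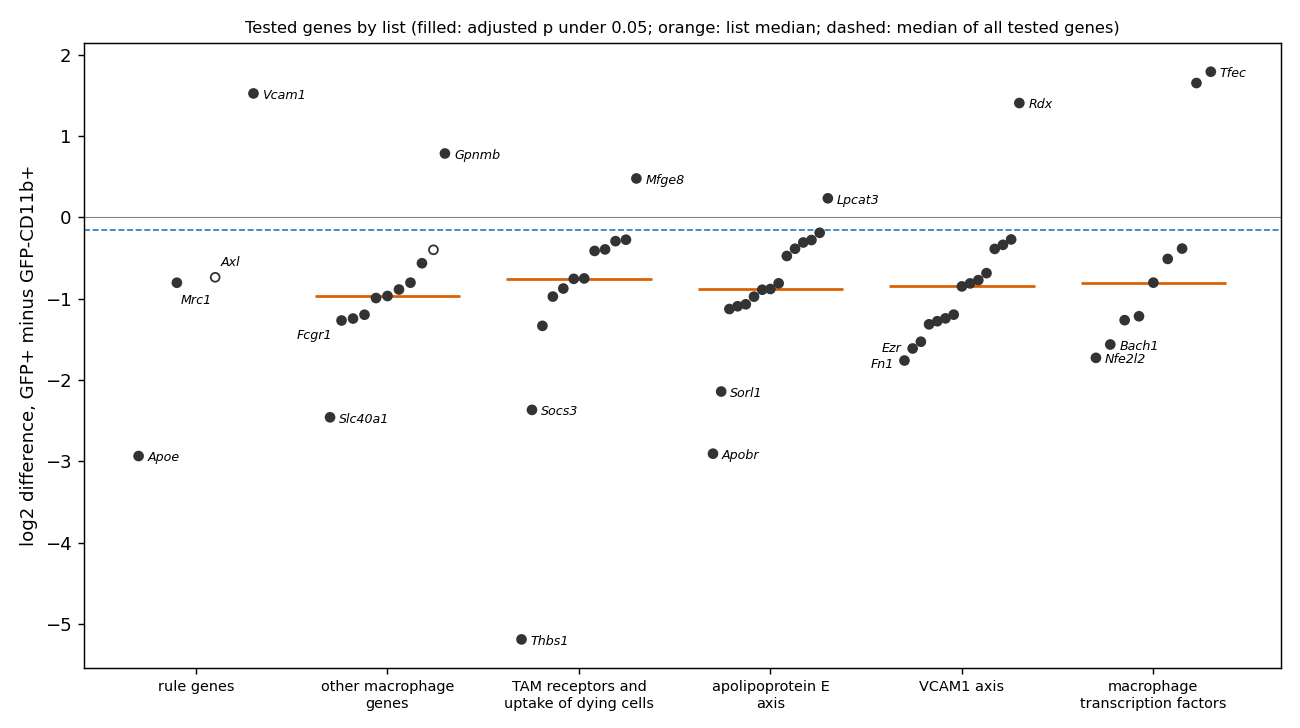
Log2 difference, GFP+ minus GFP-CD11b+ (vertical), of each tested member (left) and each tested gene of 5 lists. Filled points passed limma at an adjusted p of 0.05, orange lines are list medians and the dashed line is the median of all tested genes, -0.16. List medians lie between -0.97 and -0.75, Apoe is at -2.93 and Vcam1 at 1.52.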

How the data were processed

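TRIzol RNA went into NEBNext Ultra libraries, per the labels' protocols. The authors deposited 1 table of variance-stabilised values on a log2 scale. The submitters' processing notes name HISAT2 (2.0.4 and 2.2.1) and DESeq2. The genome build, counter and strand setting are not given in the sources used here. Of the 10141 row names, 10133 were among the GENCODE M21 symbols.

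The lowest value, 8.1823, stands for 0 reads. The variance-stabilising function was inverted to reads, and 100.0% of values up to 300 reads came out whole in each library within 0.1 read. Means are given ± SD over 5 libraries. Reads in the table are part of a library and not its depth.

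The groups were compared with limma 3.58.1 (R 4.3.3) on the deposited values with a trended prior variance, two-sided, with Benjamini-Hochberg adjustment at 0.05 over 8079 genes whose mean lay over 1 unit above the lowest value. Since the table was selected for a difference, adjusted p-values are not false discovery rates over all genes. An alternative counted every one of 55536 annotated genes as a test. The fit was tested on simulated data.

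The members, the gene lists, the tests and the alternatives were chosen with earlier results of these data known. Named genes were the members, up to the 3 highest and 3 lowest passing genes of each list with the most abundant that did not pass, and the 5 nearest genes of Apoe, Axl and Vcam1. Some genes that this rule names are not reported here. Siglec1 came in by this rule. Spic, Itga4, Itgb7 and Itga9 were named after their values had been seen. Pecam1, Pdgfrb, Cxcl12, Col1a1, Jchain, Lyz2, Hoxa9, Hoxa10 and Meis1, from the marker lists, were also named outside this rule. Alternatives were other filters and scalings, voom, library weights, a replicate block and leaving out libraries. Promoters and their motif matches came from RefSeq sequences.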

Additional observations from a re-analysis of the deposited data

Results flagged for a closer look

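Among 57 named genes, the 5 libraries of each group were searched for a single value far from the others, with Dixon's 95% critical value of 0.71 for the gap over the range. Chance flags about 1 in 20 groups, and 5 of 114 groups were flagged. None of them was a group of a member. The search looks for 1 value far from the rest and can miss 2 libraries that lie low together. GFP-CD11b+ replicates 2 and 4 did so for Apoe, Axl, C1qa and Mrc1. Fn1 stood high in GFP+ replicate 1, with a deposited value of 15.01 against 13.97 in the next library, or 32313 normalised reads. Fn1 stood low in GFP-CD11b+ replicate 2, at 15.18 against 15.99. Thbs1 stood low in the same library, at 13.09 against 14.25. Nfe2l2 stood high in GFP-CD11b+ replicate 4, at 13.2 against 13.05. Tfec stood high in GFP+ replicate 4, at 12.08 against 11.94.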

How the results depend on the processing

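Apoe, Mrc1 and Vcam1 kept their direction under every alternative run. The stricter filter left Axl and Mrc1 untested. Over the fits that left out 1 library, log2 differences ran from -3.52 to -2.54 for Apoe, -1.03 to -0.49 for Axl, -0.99 to -0.60 for Mrc1, -0.92 to -0.46 for C1qa and 1.45 to 1.59 for Vcam1, and between 7888 and 7959 genes passed. Axl passed after quantile normalisation (-0.83, limma adjusted p = 0.04035), with library weights (-1.16, 0.000110), without GFP-CD11b+ replicates 2 and 4 (-1.45) and without replicates 2 and 4 of both groups (-1.28). These last 2 alternatives were chosen after seeing the data. The library weights were lowest for GFP-CD11b+ replicates 2 and 4. Axl did not pass with no filter on low values (limma adjusted p = 0.0681) or with every annotated gene counted as a test (limma adjusted p = 0.462). Nor did it pass with voom on the recovered size factors (-1.26, limma adjusted p = 0.190) or scaled to the table total (-0.51, limma adjusted p = 0.627). The cause was not tested. Of the other macrophage genes, 5 passed with the stricter filter, which tested 5, and 5 under scaling to the table total, against 10 with the authors' size factors. Of the 15 nearest genes, 4 remained on log2(normalised reads + 1).

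Genes with a small difference turned from lower to higher in GFP+ cells under other scalings. The log2 values under quantile normalisation and under scaling to the table total were 0.10 and 0.25 for Adam17, 0.27 and 0.32 for Elmo1, 0.22 and 0.33 for Elmo2, 0.31 and 0.35 for Nfkb1, and 0.22 and 0.32 for Nr1h2. The median of all tested genes was then 0.09 and 0.43, against -0.16, and 53.4% and 67.4% of passing genes were higher, against 49.2%. With the stricter filter 41.6% were higher.

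Same-numbered libraries of the 2 groups had deviations from the group means that correlated at 0.13, 0.23, 0.32, 0.29 and -0.02. These values cannot decide whether a number marks the same mouse in both groups, and the main fit did not pair the samples. With a replicate block 8018 genes passed, against 8062, and Axl (-0.74, limma adjusted p = 0.0108) and Siglec1 (-0.40, limma adjusted p = 0.0267) passed. GFP-CD11b+ libraries 2, 3 and 5 correlated best with a GFP+ library of another number, and libraries 1 and 4 with that of their own number.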
